A study of Rattus norvegicus with 6 samples.

Results

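The antiviral effector genes Mx1, Mx2, Oas1a, Oas1b, Oas2, Oas3, Oasl, Oasl2 and Eif2ak2 are described here across 6 RNA-seq libraries of rat trigeminal ganglion, the cluster of sensory neurons, glia and vessels that serves the face. They were taken by gene symbol from a table of 29884 genes. All 9 symbols were in the table, and all 9 were among the 16478 genes with enough reads to be tested. The genes were picked with their conduit and injury levels in these libraries already known. Their difference between the groups is therefore given as a description. Calls made by the fits across all genes are counted too, with the share called among all genes, and nothing is read from them.

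The 3 conduit samples came from wild type rats whose infraorbital nerve had been chronically constricted (CCI-ION, a model of trigeminal neuralgia) and that then received SFM-Gel @NGC-Light, a light-driven gel in a nerve guidance conduit. The 3 injury samples came from wild type rats with the same constriction and no conduit. All 6 samples therefore carry the nerve injury, and ganglia without it, or with only the gel, the conduit or the light, were not analysed here. The labels give days 17, 18 and 19 after injury for the conduit samples and days 14, 15 and 16 for the injury samples, rising by 1 per sample in label order. Whether these are true sampling days is not known; as labelled, day and treatment cannot be told apart. No source used here gives the strain or age of the rats, or says whether ganglia were pooled or each sample is a separate animal.

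Interferons are secreted alarm proteins of virus infection, and cells that sense them switch on a shared set of genes through a factor complex that includes STAT2 and IRF9. The OAS enzymes bind double-stranded RNA and make short oligoadenylates, a signal that sets off the cutting of cellular and viral RNA. Mx proteins are dynamin-like GTPases that block virus components, and EIF2AK2, also called PKR, is a kinase that halts translation when it meets double-stranded RNA. The complex binds DNA at the interferon-stimulated response element, which holds repeats of GAAA, and promoters of such genes are known for it.

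The promoters are shown because the OAS1 genes stand in a row in the genome, and only some of those searched hold these letters, Oas1a and Oas1b among them. RefSeq promoters (build GRCr8) matched 7 of the 9 symbols, all but Mx2 and Oas2. The 250 bases before the annotated start were searched for GAAANNGAAA on both strands, with overlapping matches counted. The match is in capitals, and each stretch is written in the direction of transcription.
Oas1a, chr12:41330405-41330460, plus strand: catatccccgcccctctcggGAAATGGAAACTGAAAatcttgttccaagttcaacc
Oas1b, chr12:41395876-41395931, minus strand: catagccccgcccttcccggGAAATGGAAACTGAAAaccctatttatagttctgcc
Oas3, chr12:41439617-41439666, plus strand: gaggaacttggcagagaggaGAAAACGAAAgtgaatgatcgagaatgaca
Oasl2, chr12:47383307-47383356, minus strand: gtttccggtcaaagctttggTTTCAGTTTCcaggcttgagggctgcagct
Eif2ak2, chr6:21941118-21941153, plus strand: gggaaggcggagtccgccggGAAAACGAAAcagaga

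Of the 7 promoters, 5 held the letters, against 3.41% of all 33469 promoters in the table. In Oas1a and Oas1b a pair of overlapping matches formed the same run of letters, starting 41 bases before the start of Oas1a and 59 bases before that of Oas1b. The first base of the match lay 95 bases before the start in Oas3, 151 bases in Oasl2, where it is on the other strand, and 16 bases in Eif2ak2. The Mx1 and Oasl windows held no match, which says only that these letters are not in those 250 bases. A match is a string of letters and not a shown binding site.

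The libraries held 40.2 M to 41.9 M counts. The tissue label fits its markers, with the 5 sensory neuron markers summing to 7054 to 10400 CPM (counts scaled to a common library total) in conduit and 8054 to 9114 CPM in injury. The 4 Schwann cell markers summed to 33623 to 38910 CPM in conduit and 22964 to 29016 CPM in injury. Some libraries stand apart. Conduit sample 2 held 5519 CPM of 3 skeletal muscle genes, against 5.55 to 13.5 CPM in the other conduit samples and 6.15 to 315 CPM in injury. Injury sample 1 held 5986 CPM of 3 pituitary hormone genes, against 1.16 to 4.72 CPM in conduit and 1.88 to 16.7 CPM in the other injury samples. For the antiviral genes it is injury sample 3 that stood apart: it was the highest of the injury libraries for 9 of 9 genes. It shares the label batch 2 with conduit sample 1, which was the highest of the conduit libraries for 9 of 9. Batch 1 is the other injury samples and batch 3 the other conduit samples, as the labels give them. Values below are CPM scaled by TMM, a correction for library composition, as mean ± SD over n = 3 libraries a group.

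All 9 genes were higher in conduit, and each conduit library lay above each injury library for all 9. The median log2 fold change, conduit over injury, was 1.90 over the 9 genes and 0.002 over all genes tested. The fold changes ran from 1.18 for Eif2ak2 to 2.35 for Mx1. Groups that did not overlap in this direction were found for 5.41% of all genes tested, or 8.48% without injury sample 3. That all 9 members separate there too was fixed beforehand, since leaving out a library cannot make separated groups overlap. In edgeR's quasi-likelihood test with Benjamini-Hochberg adjustment over all genes, 0 of the 9 passed, as 0 genes did in this direction and 0.00607% in either. At an unadjusted p under 0.05 there were 8, all but Oas1b, against 2.99% of all genes higher and 2.36% lower. DESeq2 called 3, Mx1, Oasl and Eif2ak2, against 0.616% of its genes, and limma-voom 0. Since the genes were picked on this contrast, nothing is read from these counts. In bulk tissue, more cells of a type and more RNA per cell cannot be told apart.

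**Figure D1:**
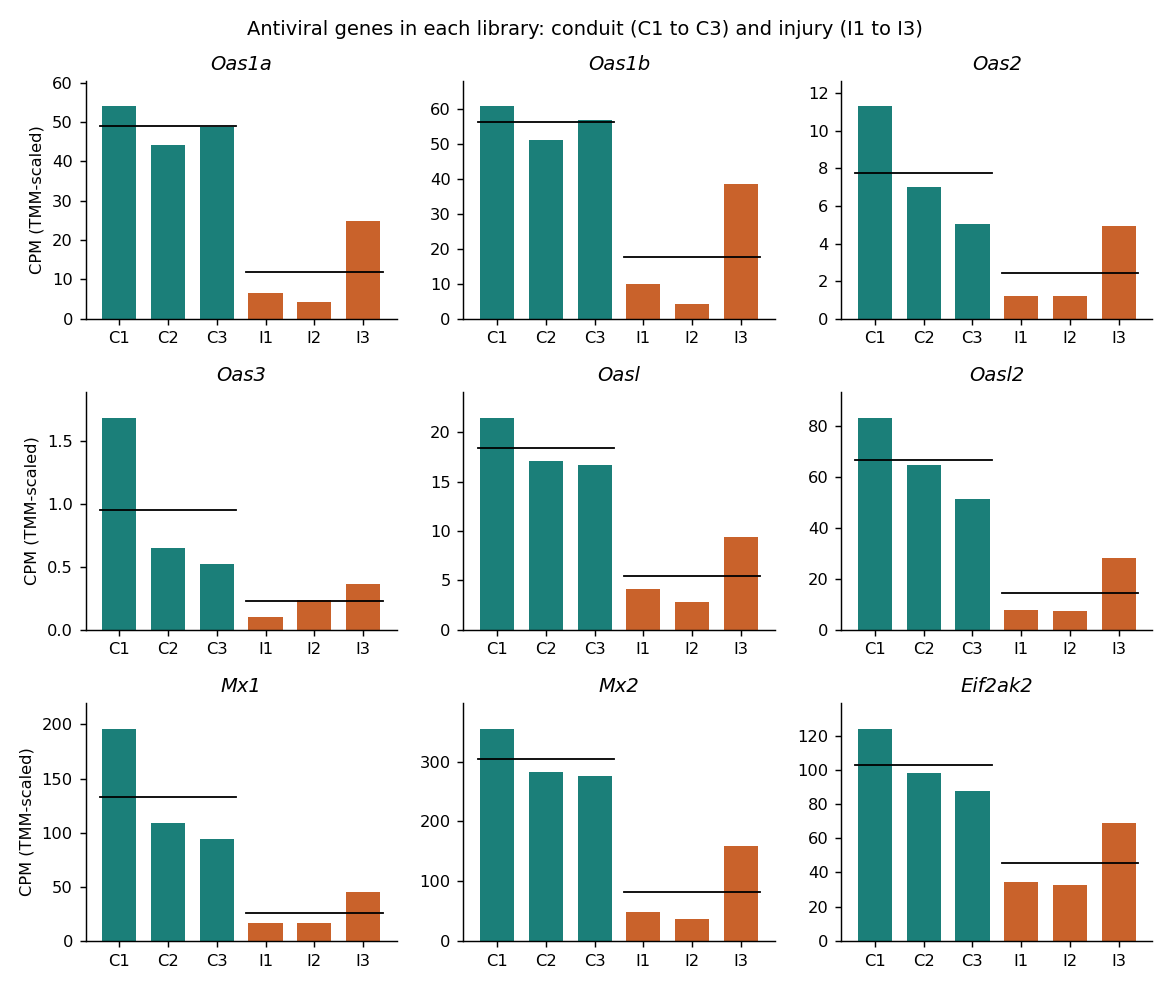
CPM (TMM-scaled, linear axes from 0) of the 9 antiviral genes in conduit samples 1 to 3 (C1 to C3, green) and injury samples 1 to 3 (I1 to I3, orange); black lines are the group means. In every panel C1 is the highest conduit bar and I3 the highest injury bar, and for Oas2 C3 at 5.05 CPM barely exceeds I3 at 4.94 CPM.

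Oas1a, an OAS enzyme with a single synthetase unit, stood at 53.98, 44.3 and 48.7 CPM in conduit samples 1, 2 and 3, against 6.61, 4.35 and 24.97 CPM in injury samples 1, 2 and 3. The conduit libraries lay close together, and injury sample 3 sat between them and the other injury samples. Its means were 49.01 ± 4.82 CPM in conduit and 11.98 ± 11.3 CPM in injury (log2 fold change 2.03, SE 0.65).

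Oas1b, whose mouse counterpart is known for resistance to flaviviruses, was at 60.7, 51.1 and 56.8 CPM in conduit, against 10.02, 4.14 and 38.4 CPM in injury. It had the widest spread among injury libraries of the 9 genes, a range of 3.20 on the log2 scale, against 0.25 among conduit libraries. Injury sample 3 lay 0.41 log2 units below the lowest conduit library. The means were 56.2 ± 4.86 CPM in conduit and 17.5 ± 18.3 CPM in injury (log2 fold change 1.68, SE 0.78).

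Per kilobase of gene length, Oas1b was 0.844, 0.864 and 0.875 times Oas1a in the conduit samples and 1.14, 0.713 and 1.15 times in the injury samples. The ratio was nearly constant in conduit and fell on both sides of it in injury. Copies of the Oas1 family can share sequence, and no source used here says how reads that match several copies were counted, so the split between them is uncertain.

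Oas2 and Oas3, larger OAS enzymes with repeated synthetase units, were the least abundant. Oas2 was at 11.3, 7.01 and 5.05 CPM in conduit, against 1.22, 1.21 and 4.94 CPM in injury (log2 fold change 1.66, SE 0.63). Conduit sample 3 and injury sample 3 came from 201 and 205 counts. Their exact Poisson 95% intervals, which cover counting error only, were 174 to 231 and 178 to 235 counts. The groups therefore met at these libraries, and they overlapped when CPM was taken without the TMM factor.

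Oas3 was at 1.69, 0.653 and 0.527 CPM in conduit, against 0.0994, 0.237 and 0.361 CPM in injury (log2 fold change 2.03, SE 0.66). These rest on 70, 26 and 21 counts in conduit and on 4, 10 and 15 counts in injury. The intervals of conduit sample 3 (13.0 to 32.1 counts) and injury sample 3 (8.40 to 24.7 counts) overlap. The order of those libraries was not detectable at this depth.

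Oasl and Oasl2 encode OAS-like proteins with a ubiquitin-like tail; in mice the first lacks synthetase activity and the second has it. Oasl was at 21.5, 17.1 and 16.7 CPM in conduit, against 4.15, 2.84 and 9.45 CPM in injury (log2 fold change 1.75, SE 0.43). Oasl2 was at 83.3, 64.8 and 51.3 CPM in conduit, against 7.73, 7.31 and 28.2 CPM in injury (log2 fold change 2.20, SE 0.58). Injury sample 3 again lay between the groups for both. Per length, Oasl2 was 2.14 to 2.71 times Oasl in the conduit libraries and 1.30 to 2.09 times in the injury libraries. The ranges nearly met, at conduit sample 3 (2.14) and injury sample 3 (2.09). Counting error of this ratio was not taken, so the order of those libraries is uncertain.

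Mx1, which in rodents acts in the nucleus and restricts influenza viruses, was at 196, 109 and 94.1 CPM in conduit, against 16.7, 16.2 and 45.6 CPM in injury. The lowest conduit library was 1.04 log2 units above the highest injury library, the widest gap of the 9 genes. The means were 133 ± 55.01 CPM in conduit and 26.2 ± 16.8 CPM in injury (log2 fold change 2.35, SE 0.51).

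Mx2, whose rodent protein acts in the cytoplasm, was at 355, 283 and 276 CPM in conduit, against 47.7, 37.2 and 159 CPM in injury. The means were 304 ± 43.6 CPM in conduit and 81.4 ± 67.6 CPM in injury (log2 fold change 1.90, SE 0.57). Mx1 and Mx2 are neighbours on chromosome 11, and the counting of reads shared between them is likewise unknown.

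Eif2ak2 was at 124, 98.1 and 87.8 CPM in conduit, against 34.5, 32.5 and 69.2 CPM in injury. It had the smallest fold change of the 9 (log2 1.18, SE 0.31). Its means were 103 ± 18.4 CPM in conduit and 45.4 ± 20.6 CPM in injury.

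Levels of different genes are compared per length, as the authors' FPKM (counts per kilobase of gene and library total). In conduit Mx2 led at 95.3 ± 16.8 FPKM, and its libraries lay above those of every other member. Mx1 (34.2 ± 15.3), Oas1a (32.8 ± 4.03), Oas1b (28.2 ± 3.03), Eif2ak2 (26.2 ± 5.54) and Oasl2 (23.2 ± 6.36 FPKM) followed, each overlapping its neighbour in that order. Oasl (9.16 ± 1.62), Oas2 (2.07 ± 0.913) and Oas3 (0.232 ± 0.162 FPKM) came last, each set apart from the one above. In injury Mx2 was at 26.4 ± 22.03 FPKM and Eif2ak2 second at 11.9 ± 5.45 FPKM, and neighbours overlapped down to Oasl at 2.81 ± 1.81 FPKM. Oas2 (0.674 ± 0.592) and Oas3 (0.0581 ± 0.0332 FPKM) were again lowest and apart.

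Mx2 was 3.55 to 3.88 times Eif2ak2 per length in the conduit libraries, against 1.71, 1.41 and 2.84 times in injury samples 1, 2 and 3. Oas1a was 1.15 to 1.47 times Eif2ak2 in conduit, against 0.507, 0.353 and 0.953 times in injury. In both ratios injury sample 3 was the injury library closest to conduit.

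Injury sample 3 exceeded the mean of the other injury samples by 1.00 log2 units for Oas3 and by 1.05 for Eif2ak2, and by up to 2.56 for Oas1b. Without it the median log2 fold change of the 9 genes was 2.84, against 0 over all genes, and every member's fold change was larger. The rise was fixed beforehand, since injury sample 3 was the highest injury library for all 9 genes. Oas1a then stood at 3.16 (SE 0.23), Oas1b at 2.99 (SE 0.40), Mx2 at 2.84 (SE 0.19) and Eif2ak2 at 1.62 (SE 0.17). edgeR then called 5 of the 9, Mx2, Oas1a, Oasl, Oasl2 and Eif2ak2, against 0.184% of all genes higher. The injury samples left are all of batch 1 and the conduit samples of batches 2 and 3. Group and batch therefore cannot be told apart in these values.

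Within batch 2 conduit sample 1 exceeded injury sample 3 for all 9 genes, with a median log2 difference of 1.18. That direction was fixed beforehand, since each conduit library lay above each injury library for all 9, and nothing is read from it. The difference was largest for Mx1, at 2.10, and Oas3, at 2.08, and smallest for Oas1b, at 0.66. With 1 library a group this has no replicate check. Batches 1 and 3 each hold a single group and give no such value.

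**Figure D2:**
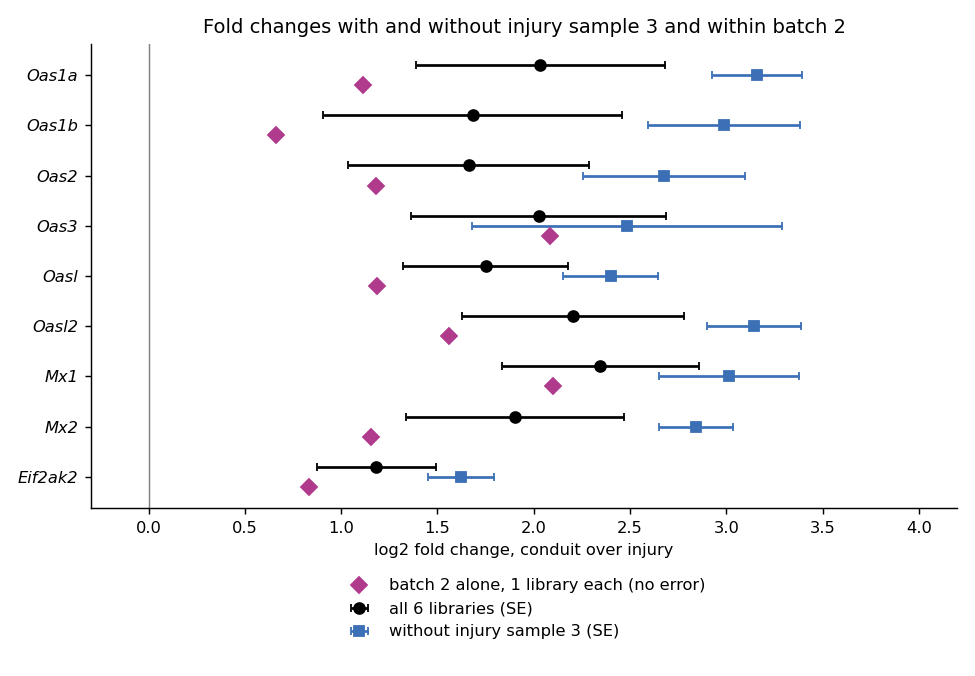
Log2 fold change of each gene, conduit over injury, from all 6 libraries (black circles), without injury sample 3 (blue squares; bars are SE in both) and between the single conduit and injury libraries of batch 2 (purple diamonds, no error). All values lie above 0, which the separated groups fixed beforehand. Oas1b spans the widest interval, from 0.66 within batch 2 to 2.99 without injury sample 3.

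Conduit libraries differed less from each other than injury libraries for 8 of the 9 genes. Their range was 0.25 to 0.70 log2 units for Oas1a, Oas1b, Mx2, Oasl, Eif2ak2 and Oasl2, 1.06 for Mx1, 1.15 for Oas2 and 1.59 for Oas3. The injury range was 1.09 to 3.20 log2 units. Oas3 was the exception, with 1.47 in injury. The count changes without injury sample 3: between injury samples 1 and 2 alone, the difference exceeded the conduit range for 3 of the 9, Oas1a, Oas1b and Oasl. A range over 3 libraries tends to be wider than a difference between 2, so the 2 counts are not alike.

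**Figure D3:**
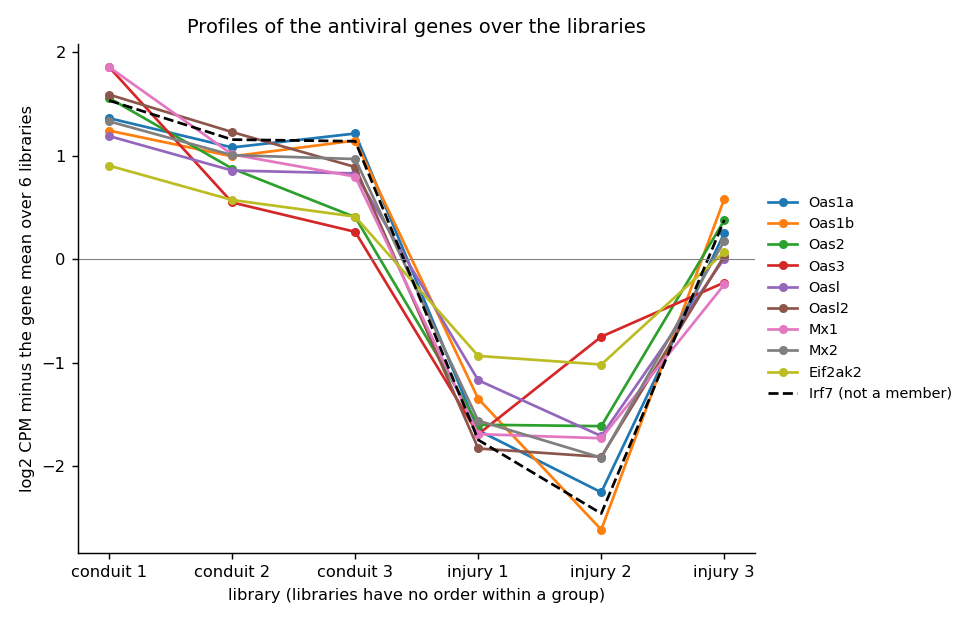
Log2 CPM of each of the 9 genes minus its own mean over the 6 libraries; lines join the values of a gene, and the libraries have no order within a group. All members are highest in conduit sample 1, with injury sample 3 between the other injury libraries and conduit. Oas3 and Eif2ak2 lie farthest from the members' median profile. Irf7 (dashed), which is not a member, runs close to that profile.

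The likeness of other genes to this pattern was measured as the root-mean-square distance between mean-centred log2 CPM over the 6 libraries and the members' median profile. Of all other genes tested, the 8 nearest were Irf7, Ddx60, Apol9a, Rtp4, Dhx58, Oas1i, Usp18 and Ifit3, at distances of 0.10 to 0.28, against a median of 1.48 over other genes. Irf7, a factor that amplifies interferon production, was the nearest, at 222, 171 and 169 CPM in conduit, against 22.8, 13.9 and 99.6 CPM in injury. Of the members, Oas1a, itself of middle abundance, lay closest to the median profile (0.08). Oas3 (0.85) and Eif2ak2 (0.76) lay farthest from it. This order rests on how the profile was taken.

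In the RefSeq order, Oas1i, Oas1d, Oas1a, Oas1h, Oas1f, Oas1b, Oas1e, Oas1k, Oas3 and Oas2 follow each other on chromosome 12 with no other protein-coding gene starting among them. Oas1i was at 34.8, 28.6 and 33.9 CPM in conduit, against 5.27, 4.09 and 15.1 CPM in injury (log2 fold change 1.99, SE 0.49), close to its relative Oas1a. Oas1h, which lies next to Oas1a, did not exceed 0.301 CPM in conduit or 0.273 CPM in injury.

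Oas1e was at 0.176 to 0.410 CPM in conduit and 0.0497 to 0.284 CPM in injury, and Oas1f at 0.703 to 3.64 CPM in conduit and 1.11 to 3.58 CPM in injury. Both overlapped between groups. The highest Oas1f libraries were conduit sample 3 and injury sample 1, which were not the highest for any member. Oas1d had at most 1 count in a library.

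**Figure D4:**
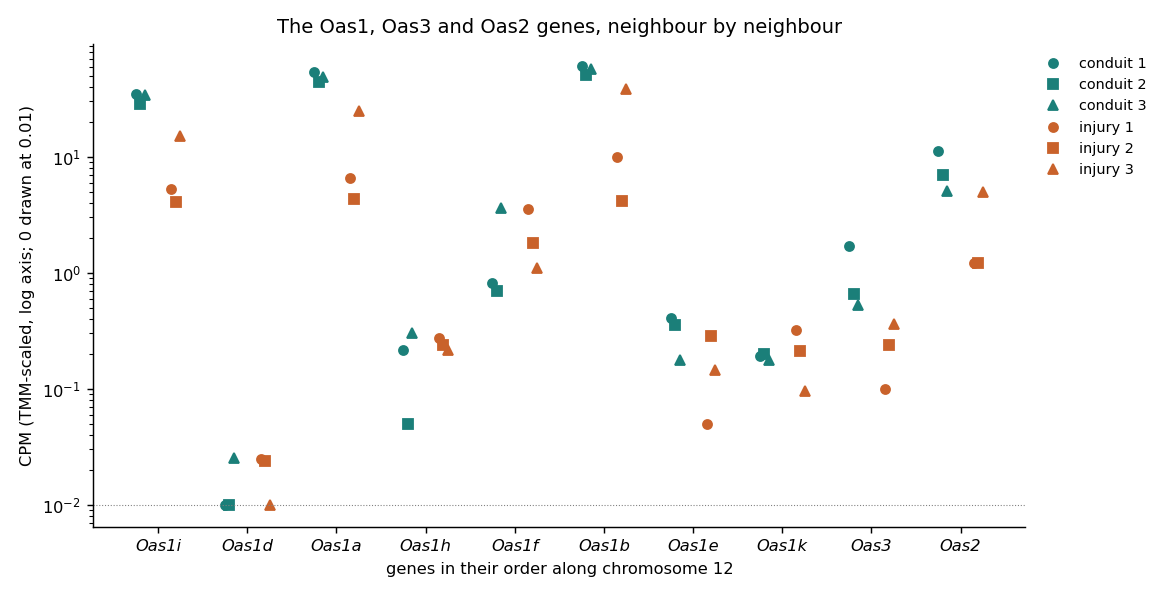
CPM (TMM-scaled, log axis, 0 drawn at 0.01) of the 10 neighbouring OAS genes in their order along chromosome 12, with conduit libraries (green) left of injury libraries (orange). Oas1i, Oas1a, Oas1b, Oas3 and Oas2 have every conduit point above every injury point, whereas Oas1d, Oas1h, Oas1f, Oas1e and Oas1k overlap and stay at or below 3.64 CPM.

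The promoters of Oas1i, high in conduit, and of Oas1h, near the detection floor in both groups, are shown because these relatives lie on either side of Oas1a. The stretch of Oas1i again holds the letters, starting 36 bases before the start, while the 250 bases before Oas1h, Oas1e, Oas1f and Oas1d hold none.
Oas1i, chr12:41285170-41285225, plus strand: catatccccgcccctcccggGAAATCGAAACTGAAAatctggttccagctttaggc
Oas1h, chr12:41353992-41354061, minus strand: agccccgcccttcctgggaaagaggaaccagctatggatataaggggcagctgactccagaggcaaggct

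Over aligned columns of the 250 upstream bases, Oas1i was 86.3% identical to Oas1a, Oas1b was 71.6% identical to Oas1a, and Oas1h was 52.5%. Oas1e and Oas1h, which hold no match, were 93.2% identical to each other. No value was taken for unrelated stretches, so these shares have no baseline. Among the other interferon-stimulated genes, 14 of 22 promoters held the letters. These are descriptions of sequence, and no binding was measured.

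Of 6 tested genes of the list of OAS paralogs and regulators, edgeR's adjusted p called 0. At an unadjusted p under 0.05, 1, Oas1i, was higher, against 2.99% of all genes. DESeq2 called 1 of the list higher, against 0.616% of its genes. Abce1, a ribosome recycling factor on that list, averaged 98.7 ± 3.01 CPM in conduit and 101 ± 5.56 CPM in injury, and its groups overlapped.

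Other antiviral RNA-degrading enzymes and their cofactors had a median log2 fold change of 0.40 over 9 genes, with 0 called by edgeR after adjustment. DESeq2 called 1 of them higher, against 0.616% of its genes. At an unadjusted p under 0.05 in edgeR, 4 were higher and 0 lower, against 2.99% and 2.36% of all genes. Zc3hav1, which binds viral RNA for decay, was at 87.2, 73.3 and 71.7 CPM in conduit, against 42.5, 48.6 and 62.1 CPM in injury. Trim25, its cofactor, averaged 15.6 ± 4.87 CPM in conduit and 8.03 ± 2.70 CPM in injury. Pnpt1, a mitochondrial RNA exonuclease, averaged 45.5 ± 2.91 CPM in conduit and 34.5 ± 3.59 CPM in injury. Samhd1, which depletes nucleotides, averaged 8.001 ± 2.25 CPM in conduit and 5.28 ± 0.936 CPM in injury.

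Around PKR, the list of eIF2 kinases, subunits, regulators and targets had a median log2 fold change of 0.03 over 15 genes. After adjustment edgeR called 0 and DESeq2 0. At an unadjusted p under 0.05 in edgeR, 2 were higher and 0 lower, against 2.99% and 2.36% of all genes. The 2 were Adar and Dnajc3. Adar, which edits double-stranded RNA, averaged 127 ± 6.81 CPM in conduit and 93.6 ± 19.9 CPM in injury. Dnajc3, an inhibitor of PKR, averaged 41.5 ± 3.09 CPM in conduit and 34.0 ± 2.72 CPM in injury. Ppp1r15a, the induced subunit of the eIF2 phosphatase, averaged 56.5 ± 6.91 CPM in conduit and 66.0 ± 4.06 CPM in injury. The other eIF2 kinases, Eif2ak1, Eif2ak3 and Eif2ak4, had log2 fold changes of -0.04, 0.06 and -0.06. The 4 dynamins, relatives of Mx, lay between -0.08 and 0.00.

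Upstream, transcripts of the listed interferons were at or near 0. Of 10 interferon genes listed, 9 were in the table, and other interferon genes were not looked up. None of the 9 exceeded 1 count in any library, with 3 counts over the conduit libraries and 2 over the injury libraries. A count of 0 allows up to 3 counts, or 0.0716 to 0.0747 CPM, so lower levels were not detectable at this depth. The receptor genes Ifnar1 and Ifnar2 had log2 fold changes of -0.02 and 0.06.

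Stat2 averaged 108 ± 10.5 CPM in conduit and 50.2 ± 16.3 CPM in injury (log2 fold change 1.10, SE 0.22), and Irf9 averaged 78.7 ± 5.84 CPM in conduit and 37.9 ± 18.2 CPM in injury (log2 fold change 1.05, SE 0.31). The list of receptors and the factor complex held 11 genes with a median of 0.28, with 0 called by edgeR after adjustment. DESeq2 called 2 of them higher, against 0.616% of its genes. At an unadjusted p under 0.05 in edgeR, 4 were higher and 0 lower, against 2.99% and 2.36% of all genes. Among 7 sensors and adaptors of double-stranded RNA and DNA the median was 0.93, with 0 called by edgeR and 0 by DESeq2. At an unadjusted p under 0.05 in edgeR, 3 were higher, against 2.99% of all genes. Dhx58, a regulator of RNA sensing, averaged 34.0 ± 7.07 CPM in conduit and 9.32 ± 8.40 CPM in injury, and Ifih1, an RNA sensor, 25.6 ± 4.95 CPM in conduit and 11.3 ± 6.03 CPM in injury.

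The other interferon-stimulated genes had a median of 1.20 over 25 genes, all 25 with a fitted fold change above 0, as for 50.5% of all genes. For 17 of the 25 every conduit library lay above every injury library, as for 5.41% of all genes. Again edgeR called 0 of them after adjustment, with 18 higher before it (unadjusted p under 0.05; 2.99% of all genes), while 10 were called higher by DESeq2 (0.616% of its genes). Ifitm3, which blocks virus entry, was at 113, 88.6 and 91.9 CPM in conduit, against 31.3, 30.3 and 54.3 CPM in injury. These lists were chosen with earlier results of the same libraries known and share the contrast of the members, so they are no independent support.

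**Figure D5:**
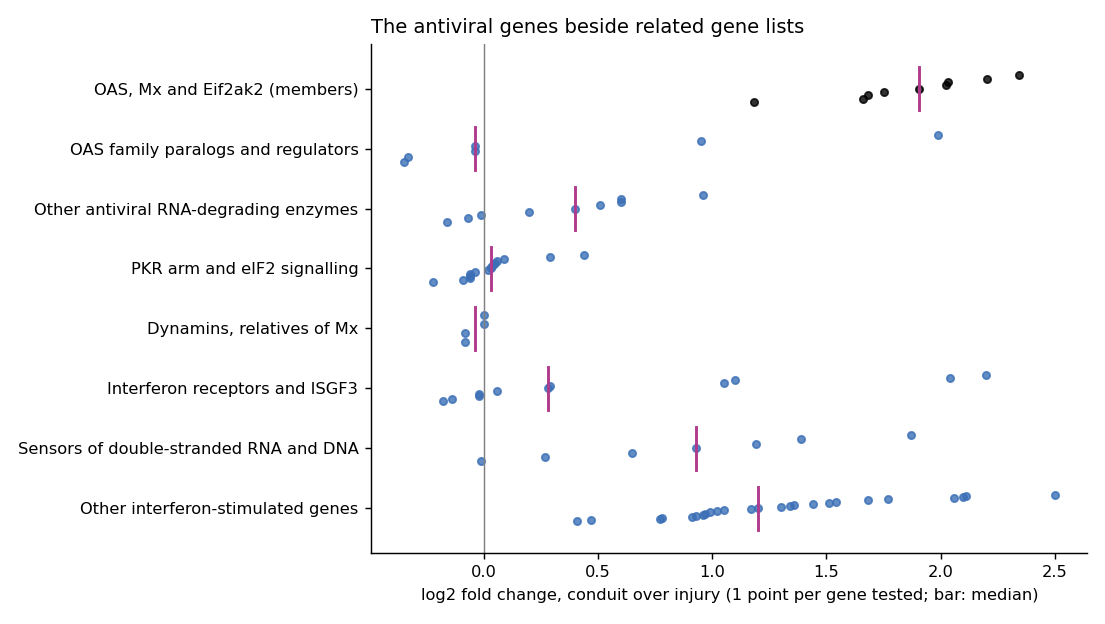
Log2 fold change, conduit over injury, of each gene tested, for the 9 antiviral genes (black) and 7 related lists (blue), with the median of each as a purple bar. The members lie between 1.18 and 2.35, the other interferon-stimulated genes between 0.41 and 2.50, and the dynamins within 0.08 of 0.

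Markers of other cells are given beside these results, and their part in them was not tested. The 8 macrophage markers summed to 191, 82.9 and 79.4 CPM in conduit, against 83.1, 125 and 105 CPM in injury; 0 of 8 separated the groups, and conduit sample 1, highest for all members, was highest here. The 4 B cell markers summed to 0.803 to 2.15 CPM in conduit and to 0.497, 21.5 and 8.70 CPM in injury, and the 6 T and NK cell markers to 1.16 to 2.92 CPM in conduit and 1.39 to 6.03 CPM in injury. Of 5 markers of plasmacytoid dendritic cells, which are known for making interferon, Siglech did not exceed 0.0724 CPM, and the sum was 26.6 to 35.5 CPM in conduit and 26.2 to 51.2 CPM in injury.

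The 5 erythroid markers were lower in every conduit library, at sums of 10.9 to 16.8 CPM, against 68.6, 276 and 220.1 CPM in injury. The 5 neutrophil markers summed to 7.43 to 25.8 CPM in conduit, against 48.7, 527 and 109 CPM in injury, and 4 of 5 were lower in every conduit library. Injury sample 2, the highest for both sums, was the lowest injury library for 8 of the 9 antiviral genes. Endothelial markers summed to 128 to 164 CPM in conduit and 118 to 137 CPM in injury, and the 3 satellite glia markers to 605 to 772 CPM in conduit and 586 to 657 CPM in injury. Of the 4 Schwann cell markers, 3 were higher in every conduit library, against 5.41% of all genes tested. No such share was taken for genes lower in every conduit library, so nothing is read from the erythroid and neutrophil counts.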

How the data were processed

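RNA-seq of 6 rat trigeminal ganglion samples was used. Reads were processed with fastp, HISAT2, SAMtools, HTSeq and DESeq2 on build mRatBN7.2, per the submitters' processing notes; no source used here gives versions, annotation or strandedness. Counts as deposited by the authors are whole, unscaled reads per gene symbol, 40.2 M to 41.9 M per library; the deposited FPKM values are made by the authors from counts, gene length and library total.

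Groups came from the titles. In R 4.3.3, edgeR 4.0.16 (filterByExpr with a minimum of 10 counts, TMM, robust quasi-likelihood F test, no covariate) compared conduit with injury over 16478 genes with Benjamini-Hochberg adjustment at 0.05; SE is the log2 fold change over the root of F. Log2 CPM used a prior count of 2. DESeq2 1.42.0, limma-voom 3.58.1, limma on log2 FPKM plus 1 or 0.1, other scaling and filter, a replicate or batch term and each library left out were alternatives. The fits were tested on simulated data. P-values measure the spread between samples, which may be technical. Libraries of a group differed beyond counting noise.

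The members, lists and tests were chosen with earlier results of these data known. All members, up to 4 genes per list by smallest p and the 8 genes nearest in profile were named by rule, some of which are not reported here; Eif2ak1, Eif2ak3, Eif2ak4, Ifnar1, Ifnar2 and Oas1f were added after their values were seen. Promoters are RefSeq's (GRCr8), whose coordinates were not mixed with the counts.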

Additional observations from a re-analysis of the deposited data

How the results depend on the processing

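Each conduit library lay above each injury library for all 9 members. A positive sign with a library left out or within batch 2 was therefore fixed beforehand, and nothing is read from it. All 9 members kept a positive log2 fold change in every alternative run. Their median was 1.90, between 1.18 within batch 2 alone (1.19 with batch in the fit) and 2.23 with the replicate block. With 1 library left out the median ran from 1.56 to 2.84. Batch 2 alone and batch in the fit are in effect the same comparison, since only batch 2 holds both groups. edgeR called 0 members under every setting but 1: without injury sample 3 it called 5 (range 0 to 5 over the libraries left out). In that setting group and batch cannot be told apart. DESeq2 called 3. Over all genes edgeR called 1, against 208 by DESeq2, 6 with no low-count filter, 0 with batch in the fit and 0 to 38 with 1 library left out (38 when injury sample 1 was dropped, 35 when it was injury sample 3, 6 for conduit sample 1 and 0 for conduit sample 3). With no TMM factor 8 members separated the groups, all but Oas2, a setting chosen after seeing the data, as was the separation without injury sample 3. The log2 fold change of Oas3, 2.03 on counts, was 0.21 on log2(FPKM + 1) and 0.99 on log2(FPKM + 0.1), since its FPKM lies under the pseudocount or near it. Same-numbered samples are not paired by the labels. Their deviations correlated at -0.417, 0.057 and -0.071, and those of unlike number at -0.348 to 0.327. Such values can neither show nor exclude a pairing. The replicate block called 0 genes and 0 members. Depth limits Oas3, with 4 to 70 counts a library.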
